A study of Rattus norvegicus with 24 samples.

Results

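The synaptic vesicle and exocytosis genes were taken from the array annotation by symbol: synaptotagmins, synapsins, SV2 proteins, synaptophysin and synaptoporin, the VAMP, syntaxin and SNAP proteins, syntaxin binding proteins, complexins, RIM and Munc13 proteins, and every symbol that starts with Rab3. They were 80 of the 14217 genes that had a probe set with a single symbol, carried on 117 probe sets, and each gene was read from its probe set with the highest mean log2 intensity over the 24 arrays. The Rab3 pattern also took in 11 genes of the series Rab30 to Rab39, which are other Rab proteins and are counted on their own below. Of the other 69 genes, 16 were synaptotagmins and 7 were VAMP proteins.

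The arrays measured RNA from male rats of the SHR strain, which is spontaneously hypertensive, and of the normotensive WKY strain, aged 10 to 13 weeks (10 to 12 weeks for one array), with no treatment named. Each array carried RNA pooled from 5 rats. The groups were, from SHR, the pituitary's neurointermediate lobe (NIL) on 5 arrays, the rostral ventrolateral medulla (RVLM) on 5, the paraventricular nucleus (PVN) on 5 and the supraoptic nucleus (SON) on 4, and, from WKY, the RVLM on 5. WKY pools of the PVN, SON and NIL were not analysed here. The design text calls the arrays independent biological replicates, but nothing says whether pools of different structures came from the same rats.

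Release of transmitter or hormone needs a SNARE protein on the vesicle (a VAMP) to pair with syntaxin and SNAP proteins on the plasma membrane. Synaptotagmins sense calcium, complexins and syntaxin binding proteins control the pairing, Rab3 and the RIM and Munc13 proteins dock and prime vesicles, and synapsins, SV2, synaptophysin and synaptoporin lie on the vesicle itself. The PVN and SON hold the cell bodies of the vasopressin and oxytocin neurons, whose axons release their peptides in the neural part of the NIL, while the intermediate part of the NIL holds melanotrophs, endocrine cells that secrete peptides from granules. The RVLM holds brainstem neurons that drive sympathetic outflow. In tissue RNA, fewer cells of a type and less RNA per cell cannot be told apart.

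The promoters of 5 members are shown because these genes showed the contrasts described below: Vamp1 and Cplx1, which differed most between structures, Vamp2, the paralogue of Vamp1 with another order of structures, and Vamp8 and Snap23, which were higher in the NIL. Each sequence runs from 250 bases before to 50 bases after the gene's start in RefSeq (build GRCr8), 5′ to 3′ on the gene's strand, with matches to searched motifs in capitals.
Vamp1 promoter, chr4:159698644-159698943, plus strand: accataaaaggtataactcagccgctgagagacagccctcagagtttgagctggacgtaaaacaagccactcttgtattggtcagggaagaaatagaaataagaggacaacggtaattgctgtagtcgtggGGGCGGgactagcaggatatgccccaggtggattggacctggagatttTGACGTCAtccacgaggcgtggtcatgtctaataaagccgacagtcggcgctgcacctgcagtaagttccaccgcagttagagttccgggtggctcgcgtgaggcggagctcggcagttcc
Cplx1 promoter, chr14:1328823-1329122, plus strand: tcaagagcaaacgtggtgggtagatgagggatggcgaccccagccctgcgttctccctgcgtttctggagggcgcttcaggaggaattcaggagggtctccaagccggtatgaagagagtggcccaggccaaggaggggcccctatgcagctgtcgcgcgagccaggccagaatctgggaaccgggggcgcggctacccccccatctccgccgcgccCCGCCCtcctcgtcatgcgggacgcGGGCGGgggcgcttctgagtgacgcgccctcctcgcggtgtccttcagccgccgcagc
Vamp2 promoter, chr10:54292539-54292838, plus strand: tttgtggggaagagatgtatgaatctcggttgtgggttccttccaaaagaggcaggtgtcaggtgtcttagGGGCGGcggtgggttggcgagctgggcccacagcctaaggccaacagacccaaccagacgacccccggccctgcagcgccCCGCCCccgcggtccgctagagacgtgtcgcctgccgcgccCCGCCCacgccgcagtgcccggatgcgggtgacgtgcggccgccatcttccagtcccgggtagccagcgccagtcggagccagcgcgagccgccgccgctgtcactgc
Vamp8 promoter, chr4:106005593-106005892, minus strand: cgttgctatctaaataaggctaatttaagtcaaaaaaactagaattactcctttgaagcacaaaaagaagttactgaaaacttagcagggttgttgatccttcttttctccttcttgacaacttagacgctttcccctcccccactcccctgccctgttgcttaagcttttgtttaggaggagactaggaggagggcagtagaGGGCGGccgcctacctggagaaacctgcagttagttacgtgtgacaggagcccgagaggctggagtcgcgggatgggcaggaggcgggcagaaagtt
Snap23 promoter, chr3:127967636-127967935, plus strand: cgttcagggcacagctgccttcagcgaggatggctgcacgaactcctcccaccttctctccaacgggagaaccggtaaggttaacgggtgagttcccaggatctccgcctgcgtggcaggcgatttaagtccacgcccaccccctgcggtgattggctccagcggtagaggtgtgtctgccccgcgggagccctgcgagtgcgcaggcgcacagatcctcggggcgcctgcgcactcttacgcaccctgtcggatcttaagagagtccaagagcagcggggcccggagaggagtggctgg
The capitals mark a GC box (GGGCGG on either strand) and, in the Vamp1 promoter, also a cAMP response element (TGACGTCA). The Vamp2 promoter held 3 GC boxes, the Cplx1 promoter 2, the Vamp1 and Vamp8 promoters 1 each, and the Snap23 promoter none. Of the 80 members, 64 had a promoter entry, and 44 of them (68.8%) held a GC box, against 33.1% of all 33469 promoters of the same length. An E-box (CACGTG) was found in 7 members (10.9%, against 6.42% of all promoters), a cAMP response element in 2 (3.13%, against 1.83%) and a TATA box (TATAAA) in 1 (1.56%, against 14.2%). A form of the REST site was found in no member and in 0.00598% of all promoters. The set of all promoters was not limited to genes of the array and was not matched for GC content, so these shares come from unlike sets. Each motif was searched on both strands and counted on its own, so that overlapping matches of different motifs would both count.

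The deposited intensities had array medians of 35.9 to 46.5, and no pair of arrays was identical. Defining markers followed the tissue labels: Avp averaged 4453 ± 522 in the PVN and 5056 ± 495 in the SON, against 17.3 ± 3.45 in SHR RVLM, and Pomc averaged 868 ± 254 in the NIL, against 2.57 ± 1.10 in the PVN (SD, n = 4 for the SON and 5 for the others). PVN array 3 stood apart from its group: its mean Spearman correlation was 0.912 with the other PVN arrays and 0.936 with the SON arrays. Its summed meningeal marker intensity was 10746, against 904 to 1164 on the other PVN arrays and 7769 to 12416 on the SON arrays. It was the highest PVN array for 19 of the 61 members tested among structures and the lowest for 22, so each comparison that uses the PVN is also described without it.

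Among the 4 SHR structures, 61 members passed the filter on dim probe sets and 15 of the 80 passed in no fit, Unc13a among them. In both fits 58 passed, and the remaining members passed only in the RVLM fit or only in the structure fit. A member that passed only through a structure where it was bright had to differ between structures, and 10 of the 61 had at least 1 structure mean under the filter level, an intensity of 26.4. No background level was set, so the size of a difference against values under 26.4 is uncertain. The gap between the highest and lowest structure mean had a median of 1.10 on the log2 scale over the 61 members, against 0.78 over all 10596 genes tested. It exceeded 1 in 35 of 61 members (57.4%, against 36.2% of all genes) and 2 in 14 members (23%, against 11%). The RVLM was the highest structure for 26 members, the NIL for 15, the PVN for 13 and the SON for 7, which is 42.6% for the RVLM, against 26.7% of all genes, and 24.6% for the NIL, against 38.2% of all genes. The lowest structure was the NIL for 27 members, the RVLM for 17, the PVN for 12 and the SON for 5. Over all genes it was the NIL for 32.7%, the RVLM for 36.4%, the PVN for 15.6% and the SON for 15.3%. The widest gaps were 5.81 for Cplx1 and 4.99 for Vamp1, which were both highest in the RVLM and lowest in the NIL, and 3.26 for Syt16, which was highest in the PVN and lowest in the NIL.

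**Figure D1:**
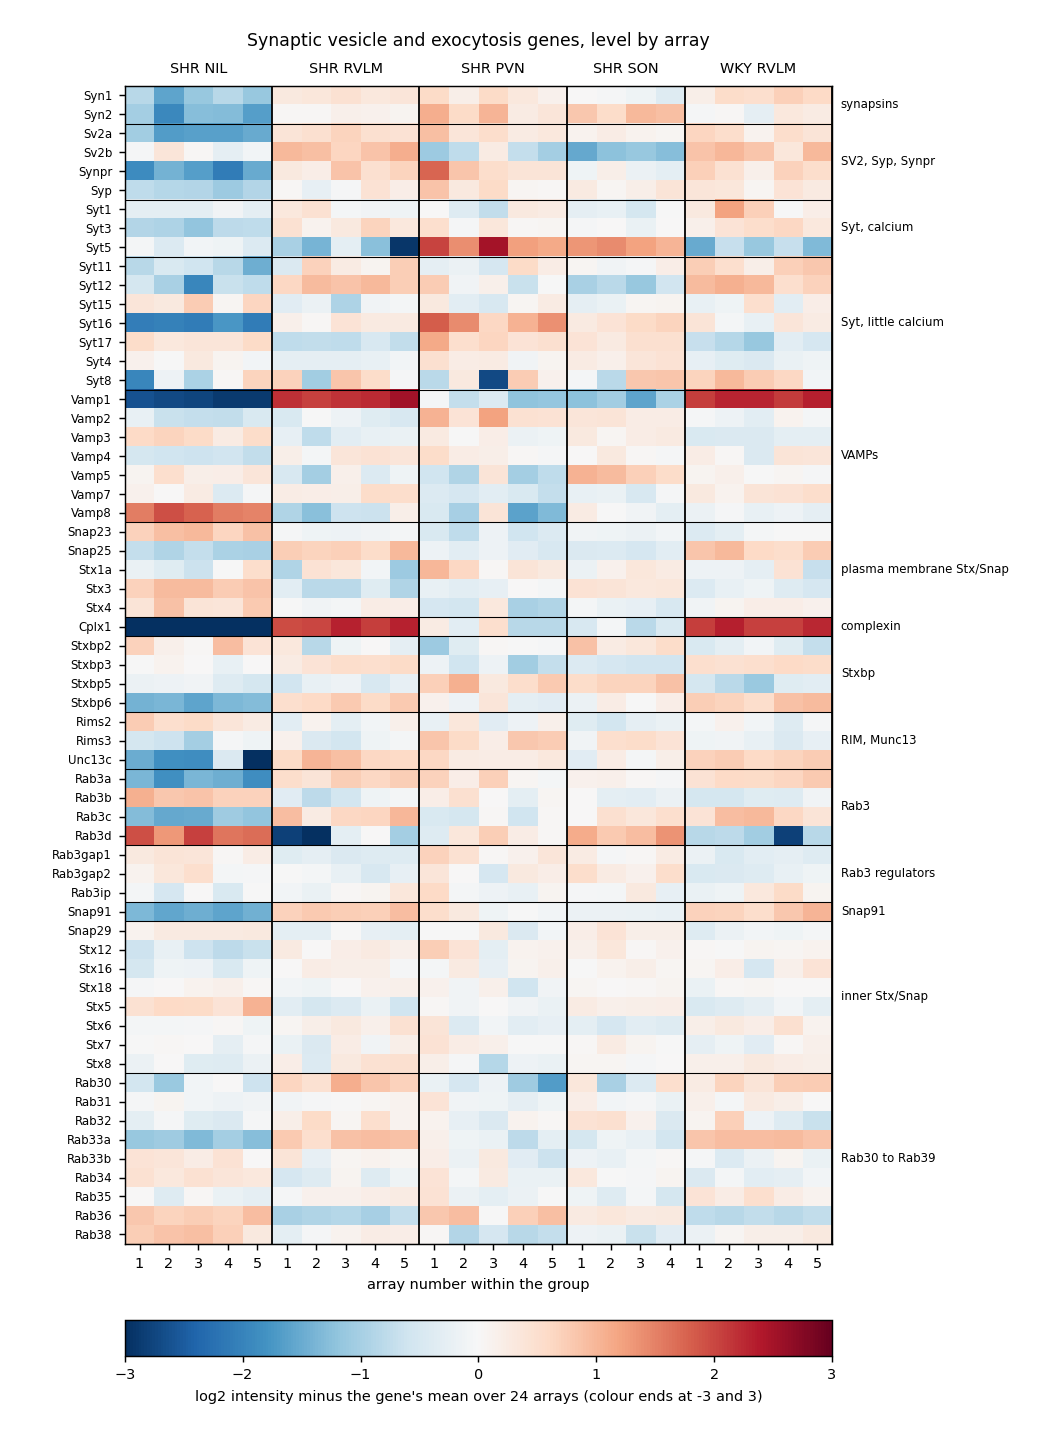
Log2 intensity of the 61 members tested among structures on all 24 arrays, each gene minus its own mean, with arrays grouped as NIL, SHR RVLM, PVN, SON and WKY RVLM and genes ordered by role. Red is above and blue below the gene's mean, and Cplx1 and Vamp1 are red in both RVLM groups and blue in the NIL.

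The NIL, where the axons of the hypothalamic neurons end, was set against the mean of the PVN and SON, where their cell bodies lie. In the NIL many genes of the neuronal vesicle and release machinery were lower: both synapsins tested, Sv2a, Syp and Synpr, Vamp1 and Vamp2, Cplx1, Rab3a and Snap25 fell, with log2 differences of -3.33 to -0.50. The genes that rose in the NIL included the broadly expressed SNARE proteins Vamp8, Snap23, Stx4, Stx3 and Vamp3, by 0.40 to 2.08. The split had exceptions on both sides. The SNARE genes Vamp4, Stx12 and Stx16 fell, with differences of -0.74, -0.78 and -0.35, while the vesicle gene Sv2b and the active zone gene Rims2 rose, by 0.98 and 0.69. In all, 16 of the 61 members tested rose and 25 fell, so that 41 (67.2%) were called at an adjusted p under 0.05, against 58.9% of all genes tested (30.8% higher and 28.1% lower). The median difference of the 61 members was -0.16, against 0.03 over all genes. Without the Rab30 to Rab39 genes, 13 of 52 members rose and 24 fell, with a median of -0.28.

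Both synapsins tested fell, with a median of -1.69. Synapsins tether vesicles in the reserve pool. Syn2 had intensities of 125, 68.3, 105, 113 and 84.3 in the NIL, against 477, 378, 498, 342 and 357 in the PVN and 445, 383, 511 and 494 in the SON. No NIL array came near either nucleus, and the difference was -2.17 (SE 0.14, adjusted p = 1.91e-11). Syn1 was 45 to 81.3 in the NIL, against 147 to 188 in the PVN and 105 to 133 in the SON, a difference of -1.21 (SE 0.12, adjusted p = 1.32e-08).

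Of the 4 tested genes of the SV2 and synaptophysin group, integral proteins of the vesicle membrane, 3 fell and 1 rose. Sv2a, whose protein is carried by nearly all synaptic vesicles, was 134, 88.7, 89.6, 97.4 and 101 in the NIL, against 448, 356, 385, 374 and 375 in the PVN and 297, 333, 304 and 298 in the SON. The groups were far apart, with a difference of -1.80 (SE 0.11, adjusted p = 5.20e-12). Synpr, which encodes synaptoporin, averaged 53.7 ± 9.40 in the NIL, against 304 ± 111 in the PVN and 162 ± 22.9 in the SON (SD), and fell by 2.05 (SE 0.18, adjusted p = 2.53e-09). Syp, which encodes synaptophysin, was 244 to 282 in the NIL, against 526 to 753 in the PVN and 510.0 to 648 in the SON, and fell by 1.19 (SE 0.13, adjusted p = 5.01e-08). The other SV2 isoform, Sv2b, went the other way, at 735 ± 107 in the NIL, against 473 ± 195 in the PVN and 296 ± 35.8 in the SON. It rose by 0.98 (SE 0.16, adjusted p = 1.62e-05), although PVN array 3, at 797, lay within the NIL values of 643 to 919. Sv2b is named here after its values were seen.

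Vesicle SNAREs split by paralogue, with 3 that rose, 3 that fell and 1 that was not called. Vamp1, a synaptobrevin of neurons of the brainstem and spinal cord, was 119.5, 115, 109, 109 and 104 in the NIL, against 608, 442, 527, 355 and 354 in the PVN and 310.4, 361, 249 and 391 in the SON. Every NIL array was below every hypothalamic array, and the difference was -1.80 (SE 0.15, adjusted p = 1.01e-09). Vamp2, the most widespread synaptobrevin of the forebrain, was 127, 94.8, 91.7, 97.6 and 113 in the NIL, against 268, 195, 329.8, 230.1 and 217 in the PVN and 192, 199, 177 and 181 in the SON. These groups did not overlap either, and the difference was -1.07 (SE 0.14, adjusted p = 6.12e-07). Vamp8 encodes endobrevin, a VAMP of endosomes and of granule release in glands and blood cells. It was 475, 642, 557, 524 and 482 in the NIL, against 105, 81.1, 205, 60.7 and 70.6 in the PVN and 194, 166, 156 and 139 in the SON. All 5 NIL arrays were above all hypothalamic arrays, and the fold change was 4.23 (difference 2.08, SE 0.25, adjusted p = 2.20e-07). Vamp3, which encodes cellubrevin of recycling endosomes, rose by 0.40 (SE 0.10, adjusted p = 0.0022), with 678 ± 55.4 in the NIL, against 467 ± 22.5 in the PVN and 542 ± 36.8 in the SON.

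Of the 5 tested syntaxin and SNAP genes of the plasma membrane, 3 rose and 1 fell. Snap25, the neuronal and endocrine SNAP, was 1811, 1630.4, 1816, 1683 and 1589 in the NIL, against 2341, 2382, 2565, 2669.8 and 2291 in the PVN and 2209, 2311, 2139 and 2471 in the SON. Its fall was modest but free of overlap, with a fold change of 0.708 (difference -0.50, SE 0.09, adjusted p = 4.05e-05). Snap23, the SNAP of most other cells, was 177, 211, 219, 189.7 and 211 in the NIL, against 70.2, 64.7, 95.2, 82.0 and 89.0 in the PVN and 103, 103, 101 and 109 in the SON. It moved opposite to Snap25, with a fold change of 2.17 (difference 1.12, SE 0.10, adjusted p = 1.37e-09). Stx4, a syntaxin of regulated secretion outside the synapse, rose by 0.95 (SE 0.16, adjusted p = 2.67e-05), with 347 to 498 in the NIL, against 151 to 319 in the PVN and 198 to 256 in the SON. Stx3, a syntaxin of ribbon synapses and of the apical membrane of epithelia, was 88.0 to 107 in the NIL, against 41.0 to 61.5 in the PVN and 70.0 to 74.3 in the SON, a difference of 0.74 (SE 0.12, adjusted p = 1.26e-05). Stx1a, the plasma membrane syntaxin that pairs with Snap25 at synapses, was not called, with a difference of -0.44 (SE 0.24, adjusted p = 0.128). Its NIL arrays, at 28.6 to 67.2, overlapped those of the PVN, at 43.8 to 77.1, and of the SON, at 39.7 to 57.7.

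Cplx1, the only complexin that passed the filter, had the largest fall of all members. Complexin clamps and then promotes SNARE fusion. It was 52.4, 49.3, 67.4, 75.0 and 64.7 in the NIL, against 787, 604, 1031, 479 and 457 in the PVN and 541, 747, 439 and 570.2 in the SON. Every NIL array lay far below both nuclei, with a fold change of 0.0997 (difference -3.33, SE 0.18, adjusted p = 7.47e-13). Cplx2 was under the filter and had a difference of -0.66 (SE 0.53, adjusted p = 0.355) in the fit with no filter. PVN array 3 read 137 for Cplx2, against 19.96 to 21.9 on the other PVN arrays.

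Calcium-sensing synaptotagmins had few tested members, 3, of which 2 fell. Syt5, a synaptotagmin of dense-core granules, was 28.3 to 37.4 in the NIL, against 88.2 to 199 in the PVN and 77.7 to 102 in the SON, and fell by 1.67 (SE 0.29, adjusted p = 4.34e-05). Syt1, the main fast calcium sensor of forebrain synapses, was not called: it averaged 35.5 ± 3.44 in the NIL, against 39.9 ± 14 in the PVN and 35.3 ± 5.52 in the SON (difference -0.07, SE 0.17, adjusted p = 0.757). Syt2, its counterpart in hindbrain neurons, passed only in the fit with no filter, at -0.84 (SE 0.27, adjusted p = 0.0144), with 10.6 ± 3.89 in the NIL, against 21.2 ± 6.54 in the PVN and 16 ± 4.93 in the SON. Among 7 tested synaptotagmins with little or no calcium binding, 3 fell and 1 rose. The largest of these, Syt16, was 14.6, 15.7, 14.7, 20.4 and 15.1 in the NIL, against 192, 165, 92.3, 145 and 174 in the PVN and 74.9, 84.1, 95.5 and 102 in the SON. All NIL values were under the filter level, and the difference was -2.87 (SE 0.15, adjusted p = 2.91e-13).

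The 4 Rab3 genes, small GTPases of secretory vesicles, split evenly. Rab3a, the main synaptic form, was 219, 164, 223, 228 and 164 in the NIL, against 808, 657, 903, 677 and 592 in the PVN and 631, 654, 604 and 587 in the SON. It fell by 1.78 with no overlap (SE 0.13, adjusted p = 5.61e-11). Rab3c, named after its values were seen, fell by 1.34 (SE 0.16, adjusted p = 2.73e-07), with 19.7 ± 3.54 in the NIL, against 39.3 ± 9.57 in the PVN and 61.2 ± 9.87 in the SON. Rab3b, a form abundant in pituitary endocrine cells, was 830.0, 714, 719, 699 and 673 in the NIL, against 399.7, 547, 387, 364 and 444 in the PVN and 398, 332, 326 and 364 in the SON. Every NIL array was higher, with a fold change of 1.84 (difference 0.88, SE 0.12, adjusted p = 3.04e-06). Rab3d, a form of exocrine and endocrine granules named after its values were seen, rose by 1.10 (SE 0.39, adjusted p = 0.0209) with overlapping arrays, the lowest NIL array at 86.1 and the highest SON array at 90.2. None of the 3 tested Rab3 regulators was called.

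Syntaxin binding proteins gave 1 rise and 2 falls among 4. Stxbp6, which encodes amisyn, an inhibitor of SNARE assembly, fell by 1.41 (SE 0.11, adjusted p = 3.79e-10), with 95 ± 9.64 in the NIL, against 236 ± 37.5 in the PVN and 262 ± 37.7 in the SON. Stxbp3, the partner of Stx4, rose by 0.50 (SE 0.12, adjusted p = 0.00112), with 297 ± 18.9 in the NIL, against 205 ± 36.5 in the PVN and 209.7 ± 8.47 in the SON. Snap91, which encodes the clathrin adaptor AP180 and is no SNARE despite its symbol, fell by 1.45 (SE 0.09, adjusted p = 1.21e-11), with 356 to 403 in the NIL, against 906 to 1279.8 in the PVN and 909 to 937 in the SON. Of the RIM and Munc13 genes 3 were tested, with 1 rise and 2 falls. Rims1, the main RIM of the active zone, was under the filter and had a difference of -0.42 (SE 0.19, adjusted p = 0.0875) with no filter. Unc13a, the main Munc13 priming factor, was dim in all groups, at 15.5 ± 10.0 in the NIL, against 11.9 ± 8.82 in the PVN and 12.8 ± 7.25 in the SON.

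Among 8 tested syntaxins and SNAP proteins of inner membranes 1 rose and 2 fell. The rise was Stx5, a syntaxin of the Golgi, at 0.56 (SE 0.10, adjusted p = 4.95e-05). Of 9 tested genes of the Rab30 to Rab39 series 3 rose and 1 fell. Rab38, a Rab of lysosome-related organelles, had the largest of these rises, at 1.16 (SE 0.16, adjusted p = 1.81e-06), with 83.8 ± 12.2 in the NIL, against 33.7 ± 6.51 in the PVN and 40.4 ± 5.81 in the SON. Rab34, which acts at the Golgi, rose by 0.32 (SE 0.12, adjusted p = 0.0236), a call lost as the mean of its probe sets (0.19, adjusted p = 0.168) and without NIL array 1 (adjusted p = 0.0556) or array 3 (adjusted p = 0.0564).

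Other genes of the release pathway were read from lists outside the symbol rule. Their counts stand beside 58.9% of all genes called (30.8% higher and 28.1% lower). Of 13 tested proteins and transporters of the vesicle membrane 10 fell and 2 rose, with a median of -1.12. Slc32a1, which loads GABA and glycine into vesicles, fell to 7.19 ± 3.79 in the NIL, against 306 ± 105 in the PVN and 133 ± 38.0 in the SON, and the NIL level is too dim for a fold. Syngr3, a synaptogyrin, fell by 4.57, and Slc17a6, a vesicular glutamate transporter, fell by 3.74. Of 14 active zone proteins 8 fell and 4 rose (median -0.90), among them Nrxn3, a presynaptic adhesion protein, with 10.8 ± 8.05 in the NIL, against 286 ± 37.8 in the PVN and 135 ± 12.8 in the SON. Apba1, a presynaptic adaptor protein, fell by 3.21, and Cacna1b, the pore of the N-type calcium channel, had a difference of -2.0. Of 20 genes of vesicle endocytosis 12 fell and 4 rose (median -0.43), with Dnm1, the neuronal dynamin, at -2.35, Sh3gl3 at -1.96 and Itsn1 at -1.68.

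In the list of NSF, priming factors and other calcium sensors, 7 of 15 genes fell and 5 rose, with a median of -0.40. A pair of granule docking proteins rose. Rab27a, a Rab of secretory granules, was 775 ± 56.1 in the NIL, against 47.2 in the PVN and 49.8 in the SON on average, and rose by 3.98. Sytl4, which encodes granuphilin and binds Rab27a on granules, was 243 ± 23.5 in the NIL, against means of 22.4 in the PVN and 12.2 in the SON, both under the filter level. Napb, a neuronal adaptor of the ATPase NSF, fell by 2.79. Of 7 tested exocyst subunits, which tether vesicles to the membrane, 2 rose and 2 fell (median -0.15).

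Cell type markers moved with these results, and their part in them was not tested. The summed pan-neuronal marker intensity was 4585 to 5041 in the NIL, against 12100 to 14042 in the PVN and 11986 to 13062 in the SON, with 15 of 16 genes lower and 1 higher. The melanotroph sum was 2869 to 3925 in the NIL, against 166 to 287 in the PVN and 256 to 306 in the SON, with 4 of 4 tested genes higher, and 4 of 5 pituicyte genes were higher. The blood cell sum was 2877 to 4895 in the NIL, against 428 to 1605 in the PVN and 879.8 to 1416 in the SON, and the astrocyte sum 3222 to 3854 in the NIL, against 10952 to 15843 in the PVN and 15261 to 17584 in the SON. The anterior pituitary sum was 2972 to 16772 among NIL arrays, against 153 to 287 in the PVN and 180 to 260 in the SON. It was thus above both nuclei on every NIL array, and highest on array 2. Without NIL array 2 the counts were 16 that rose and 24 that fell, and without PVN array 3 they were 17 and 25. Without that PVN array all 41 calls were kept, and no called member moved by more than 0.15.

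The SHR RVLM was set against the same mean of the PVN and SON, so that both structure comparisons share the hypothalamic arrays. Vamp1, Cplx1, Sv2b, Snap25 and Snap91 were higher in the RVLM, by 0.81 to 3.19 on the log2 scale. Vamp2, Syt5, Syt17 and, on its brightest probe set only, Syn2 were lower, while Syn1, Sv2a, Syp and Synpr did not pass the test in the fit described. In all, 18 of 61 members rose and 19 fell, 37 in all (60.7%), against 50.6% of all genes tested (21.4% higher and 29.2% lower). The median difference was 0.11, against -0.08 over all genes, and without the Rab30 to Rab39 genes 14 of 52 members rose and 17 fell.

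The synaptobrevins moved in opposite directions in the RVLM. Vamp1 was 3361, 3129, 3077, 3260.0 and 3839 there, against means of 457 ± 111 in the PVN and 328 ± 62.1 in the SON. Every RVLM array was far above the highest hypothalamic array, at 608, and the fold change was 9.14 (difference 3.19, SE 0.15, adjusted p = 4.93e-13). Vamp2 was 108, 152, 125, 109.8 and 97.5 in the RVLM, against 248 ± 52.8 in the PVN and 187 ± 10.2 in the SON. All 5 RVLM arrays were below all hypothalamic arrays, with a fold change of 0.574 (difference -0.80, SE 0.14, adjusted p = 4.30e-05). Of the 7 vesicle SNAREs 2 rose and 3 fell, with a median of -0.23. Vamp7, a SNARE of lysosomes and of growing axons, rose by 0.69 (SE 0.11, adjusted p = 2.58e-05), with 225 ± 23.3 in the RVLM, against 132 ± 13.3 in the PVN and 161 ± 21.0 in the SON. Vamp3 fell by 0.48 (SE 0.10, adjusted p = 0.00061), with 347 ± 40.5 in the RVLM. Vamp8, which was high in the NIL, was not called here (difference -0.23, adjusted p = 0.46). Vamp1 has another bright probe set that gave 3.32 in the RVLM comparison and -1.72 in the NIL comparison, and a dim one that gave 0.06 and -0.02.

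Cplx1 was 2942, 3141, 3536, 3012 and 3443 in the RVLM, against 672 ± 240.2 in the PVN and 574 ± 128 in the SON. No hypothalamic array exceeded 1031, and the fold change was 5.58 (difference 2.48, SE 0.18, adjusted p = 4.35e-10). Its other probe set gave 1.63 in the RVLM comparison and -1.53 in the NIL comparison. Cplx2 was 52.9 ± 17.6 in the RVLM, against 44.1 ± 52.2 in the PVN and 18.6 ± 10.6 in the SON, and did not pass with no filter (difference 1.28, SE 0.53, adjusted p = 0.0667). Its PVN mean includes array 3 at 137, against 19.96 to 21.9 on the other PVN arrays.

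Snap25 was 4959.9, 4918, 4577, 4141 and 5342 in the RVLM, above every hypothalamic array. Its fold change was 2.11 (difference 1.08, SE 0.09, adjusted p = 1.40e-09). Stx1a had 19.2 to 62.2 in the RVLM, with a wide spread, and was not called (difference -0.56, SE 0.24, adjusted p = 0.0587), although 5 of the alternatives called it, at -0.74 to -0.62. Snap23 had a difference of 0.20 and was not called. Of the 5 syntaxin and SNAP genes of the plasma membrane 2 rose and 1 fell.

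On the vesicle membrane Sv2b alone of 4 tested genes was called. It was 1396, 1362, 1040.0, 1207 and 1383 in the RVLM, against 473 ± 195 in the PVN and 296 ± 35.8 in the SON. The RVLM arrays were all higher, with a fold change of 3.67 (difference 1.87, SE 0.16, adjusted p = 3.18e-09). Sv2a was 376 ± 29.7 in the RVLM, against 388 ± 35.5 in the PVN and 308 ± 16.9 in the SON (difference 0.19, SE 0.11, adjusted p = 0.17). Syp had a difference of -0.22 (SE 0.13, adjusted p = 0.156) and Synpr one of 0.16 (SE 0.18, adjusted p = 0.476). Syn1 had a difference of 0.24 (SE 0.12, adjusted p = 0.0973), with 162 ± 8.19 in the RVLM. Alternatives called Syp with the values as deposited (-0.29, adjusted p = 0.0136) and with quantile normalization (-0.35, adjusted p = 0.00109). They called Sv2a with array weights (0.23, adjusted p = 0.0432) and without PVN array 1 (0.24, adjusted p = 0.046), and Syn1 with array weights (0.30, adjusted p = 0.0186). Syn2 fell by 0.64 (SE 0.14, adjusted p = 0.000842), with 263 ± 10.1 in the RVLM, against 410.5 ± 71.7 in the PVN and 458 ± 57.5 in the SON. That call belongs to 1 probe set, since the other sets of Syn2 gave 0.17 and 0.24 and the mean of its kept sets gave -0.08 (adjusted p = 0.588).

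Among synaptotagmins, Syt5 was 19, 14.8, 28.5, 14.7 and 4.52 in the RVLM, against 122.9 ± 45.8 in the PVN and 90.4 ± 10.2 in the SON. Only 1 RVLM array was above the filter level, and the fold change was 0.142 (difference -2.81, SE 0.29, adjusted p = 6.52e-08). Syt17, a synaptotagmin found at the Golgi, was 59.8 to 73.7 in the RVLM, against 155 to 209 in the PVN and 136 to 159 in the SON. It fell by 1.22 (SE 0.11, adjusted p = 5.63e-09), and its other probe set gave -1.31. Syt12, a synaptotagmin without calcium binding, rose by 1.25 (SE 0.23, adjusted p = 9.66e-05), with 66.7 ± 7.85 in the RVLM, against 40.6 ± 10.8 in the PVN and 21.9 ± 3.89 in the SON. Syt1 was not called (difference 0.28, SE 0.17, adjusted p = 0.174), and Syt2 passed only with no filter, at 1.13 (SE 0.27, adjusted p = 0.00202), with 37.4 ± 6.36 in the RVLM. Syt4, a synaptotagmin of peptide vesicles, fell by 0.47 (SE 0.09, adjusted p = 0.000231) on its brightest probe set, while its other probe set rose by 0.88 (adjusted p = 4.95e-05). Its direction in the RVLM therefore depends on the probe set.

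Rab3a rose slightly, at 843 ± 51.6 in the RVLM, against 727 ± 126 in the PVN and 619 ± 29.8 in the SON (difference 0.40, SE 0.13, adjusted p = 0.0117), with overlapping arrays, and was not called with quantile normalization (0.21, adjusted p = 0.0652). Rab3gap1, the catalytic subunit of the Rab3 GTPase activating complex, fell by 0.59 (SE 0.10, adjusted p = 3.56e-05), with 300.3 to 371 in the RVLM, against 422 to 609 in the PVN and 427 to 533 in the SON. Rims1 had a difference of 0.29 (SE 0.19, adjusted p = 0.263) and Unc13a one of -0.68 (SE 0.55, adjusted p = 0.373), both with no filter. Of the 4 Rab3 genes 2 rose and 2 fell, and of 3 RIM and Munc13 genes 1 fell.

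Of 4 syntaxin binding proteins 2 rose and 1 fell. Stxbp3 was 346, 405, 398, 393 and 396 in the RVLM, above the highest hypothalamic array at 254, and rose by 0.97 (SE 0.12, adjusted p = 7.24e-07). Stxbp6 rose by 0.65 (SE 0.11, adjusted p = 5.11e-05), with 371 ± 26.0 in the RVLM. Stxbp5, which encodes tomosyn, a decoy that occupies the plasma membrane SNAREs, fell by 1.02 (SE 0.12, adjusted p = 3.04e-07), with 104 to 137 in the RVLM, against 182 to 323 in the PVN and 226 to 298 in the SON. Its other probe sets gave -0.48 and -0.38. Snap91 rose by 0.81 (SE 0.09, adjusted p = 3.44e-07), with 1586 to 1840.4 in the RVLM. Stx5 fell by 0.47 (SE 0.10, adjusted p = 0.000502).

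In the Rab30 to Rab39 series 4 of 9 rose and 2 fell. Rab33a, a Rab of the Golgi and of axonal vesicles, rose by 1.10 (SE 0.13, adjusted p = 3.31e-07), with 198 to 241 in the RVLM, against 88.6 to 131 in the PVN and 92.9 to 126 in the SON. Rab36, a Rab that positions lysosomes, fell by 1.36 (SE 0.12, adjusted p = 8.23e-09), with 47.6 to 56.0 in the RVLM, against 94.5 to 202 in the PVN and 119.7 to 129 in the SON. Rab37, a Rab of secretory granules named after its values were seen, was under the filter over the 19 SHR arrays because it was dim outside the RVLM. It was 120.0, 91.9, 117, 126 and 123.3 in the RVLM, against 3.89 to 13.6 in the PVN and 6.89 to 17.2 in the SON, which is given as a description only. WKY RVLM arrays read 84.4 to 142 for it.

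**Figure D2:**
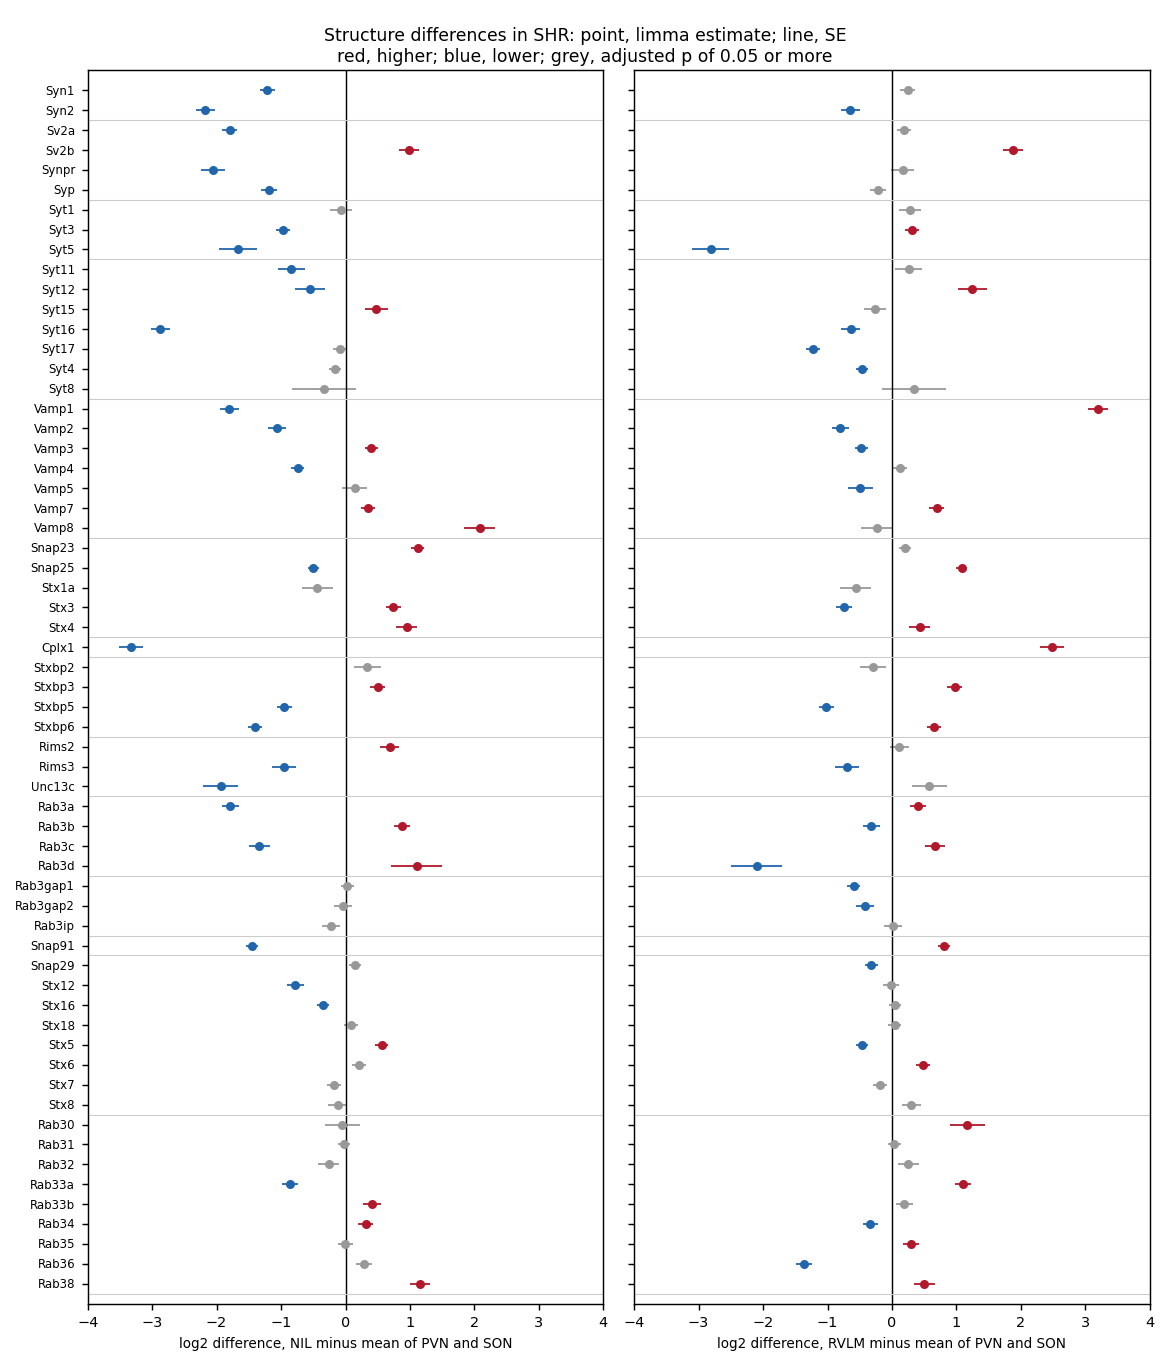
Log2 difference of each member tested among structures, for the NIL and for the RVLM, each minus the mean of PVN and SON; points are estimates and bars are SE, red for called higher, blue for called lower and grey for not called. Cplx1 and Vamp1 lie at -3.33 and -1.80 in the NIL and at 2.48 and 3.19 in the RVLM.

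Other genes of the release pathway were read from the same lists. Of all genes tested, 50.6% were called in this comparison (21.4% higher and 29.2% lower). Of 13 vesicle membrane proteins and transporters 5 rose and 2 fell (median 0.23), led by Sypl1, a synaptophysin relative, at 1.35. Slc18a2, the vesicular monoamine transporter, followed at 1.05 and Sncb, which encodes beta-synuclein, at 0.91. Of 20 endocytosis genes 6 rose and 3 fell (median 0.14), led by Pacsin1, a dynamin-binding protein, which was 141 ± 22.5 in the RVLM, against means of 49.6 in the PVN and 27.8 in the SON, and rose by 2.05. Of 15 genes of the NSF and priming list 5 rose and 3 fell (median 0.24). Cadps2, a priming factor of dense-core vesicles, was 60.4 ± 15.1 in the RVLM, against means of 381 in the PVN and 577 in the SON, and fell by 2.92. Of 14 active zone proteins 1 rose and 3 fell (median -0.11), with Cacna1b at -1.40, and of 7 exocyst subunits 2 rose and 1 fell (median 0.05).

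Pan-neuronal and oligodendrocyte markers were both higher in the RVLM, and their part in these results was not tested. The pan-neuronal sum was 27311 to 31893 in SHR RVLM, against 12100 to 14042 in the PVN and 11986 to 13062 in the SON, with 11 of 16 genes higher and 2 lower. The oligodendrocyte sum was 19228 to 23673, against 4409 to 11411 in the PVN and 6188 to 6940 in the SON, with 11 of 11 tested genes higher. Without PVN array 3 the counts of members were 18 that rose and 20 that fell, Rab35 lost its call (adjusted p = 0.0602), and no called member moved by more than 0.12.

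Between the PVN and SON, which share vasopressin and oxytocin neurons while the PVN also holds parvocellular neurons, few members differed. Synpr, Syt12, Syt16, Sv2b and Syn1 were higher in the PVN, by 0.48 to 0.90, and Vamp5, Stxbp2, Rab3c, Stx3 and Snap23 were lower, by 0.36 to 1.40. These 10 of 61 members (16.4%), with 5 in each direction, stood against 16.1% of all genes (9.02% higher and 7.12% lower), so the share was near that of all genes. The median difference was 0.05, against 0.01 over all genes, and 18 members had an unadjusted p under 0.05.

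Synpr was 498, 299, 235, 251 and 239 in the PVN, against 156, 195, 154 and 143 in the SON. Every PVN array was higher, with a fold change of 1.85 (difference 0.88, SE 0.22, adjusted p = 0.00947), and its other probe set gave 0.73. Syt12 was 56.9, 35.6, 41.1, 27.4 and 41.8 in the PVN, against 19.9, 22.7, 18 and 26.9 in the SON. The lowest PVN array was only just above the highest SON array (difference 0.90, SE 0.27, adjusted p = 0.0299). Syn1 was 169, 147, 188, 185 and 154 in the PVN, against 133, 131, 122 and 105 in the SON. The groups did not overlap, and the fold change was 1.40 (difference 0.48, SE 0.14, adjusted p = 0.0262).

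Syt16 rose by 0.78 (SE 0.18, adjusted p = 0.00611) and Sv2b by 0.63 (SE 0.19, adjusted p = 0.0307), both with overlapping arrays, and were picked out once their values were known. For Syt16 the overlap came from PVN array 3, at 92.3, against 145 to 192 on the other PVN arrays and 74.9 to 102 in the SON. For Sv2b that same array was the highest in the PVN, at 797, and the lowest PVN array, at 291, lay among the SON arrays at 246 to 329.6.

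Vamp5, a VAMP of muscle and other cells outside the nervous system, was 62.5, 57.8, 138, 60.9 and 69.0 in the PVN, against 226, 216, 184 and 166 in the SON. PVN array 3 lay between its own group and the SON, and the fold change was 0.379 (difference -1.40, SE 0.23, adjusted p = 0.000524). Stxbp2, a syntaxin binding protein of epithelia and immune cells, was 21.5 to 58.6 in the PVN, against 64.6 to 97.7 in the SON (difference -0.81, SE 0.25, adjusted p = 0.0318). Stx3 was 41.0 to 61.5 in the PVN, against 70.0 to 74.3 in the SON (difference -0.54, SE 0.14, adjusted p = 0.013). Snap23 was 64.7 to 95.2 in the PVN, against 101 to 109 in the SON (difference -0.36, SE 0.12, adjusted p = 0.039), a call made in only 8 of the 19 alternatives, with an adjusted p of up to 0.106. Rab3c, named after its values were seen, was 30.0 to 52.4 in the PVN, against 47.4 to 69.5 in the SON (difference -0.63, SE 0.19, adjusted p = 0.032).

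**Figure D3:**
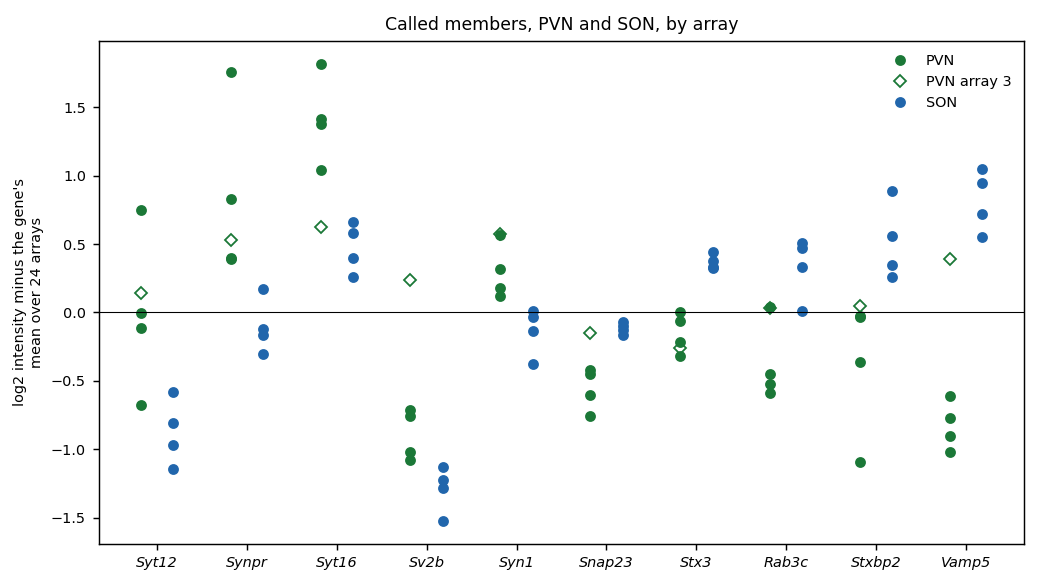
Log2 intensity of the 10 members called between PVN and SON on each array, each gene minus its own mean over all arrays. PVN lies left of SON for each gene, with PVN array 3 as an open diamond. For Vamp5 the diamond, from an intensity of 138, lies above the other 4 PVN arrays and below all SON arrays.

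The core fusion genes named here were not called between the nuclei in the fit described. Differences were 0.14 for Syt1 (adjusted p = 0.691), 0.13 for Snap25 (adjusted p = 0.437), 0.33 for Stx1a (adjusted p = 0.493) and 0.21 for Cplx1 (adjusted p = 0.574). Vamp1 gave 0.49 (adjusted p = 0.0706), Vamp2 0.41 (adjusted p = 0.0927), Sv2a 0.36 (adjusted p = 0.076), Rab3a 0.25 (adjusted p = 0.3) and Syp 0.14 (adjusted p = 0.591). Alternatives called Vamp1 in 6 settings (0.42 to 0.62), Sv2a in 4 (0.31 to 0.41) and Snap25 in 1, with quantile normalization (0.43, adjusted p = 6.98e-05). With no filter the differences were 0.42 for Syt2 (adjusted p = 0.5), 1.00 for Cplx2 (adjusted p = 0.399), -0.40 for Rims1 (adjusted p = 0.338) and -0.33 for Unc13a (adjusted p = 0.844). The Cplx2 value includes PVN array 3 at 137, against 19.96 to 21.9 on the other PVN arrays.

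Pathway genes outside the rule were called in 4 of the 5 lists. Of all genes tested, 16.1% were called between the nuclei (9.02% higher and 7.12% lower). Of 13 vesicle membrane proteins and transporters 4 rose and none fell (median 0.32), led by Slc32a1 at 1.21, Sncb (beta-synuclein) at 0.70 and Dnajc5 (a vesicle chaperone) at 0.51. Of 14 active zone proteins 4 rose and none fell (median 0.20), led by Bsn (bassoon) at 0.72, Erc1 at 0.59 and Ppfia3 at 0.52. Of 20 endocytosis genes 3 rose and none fell (median -0.03), with Dnm1 at 0.74. Of 15 genes of the NSF and priming list Rph3al rose by 1.35 and Cadps2 fell by 0.59 (median 0.07), and none of 7 exocyst genes was called.

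Meningeal markers moved with the falls in the PVN, with 7 of 9 lower and 1 higher, and their part in these results was not tested. Without PVN array 3, which carried the meningeal markers, 15 members were called, 7 higher and 8 lower. They included all 10 given above, which moved by at most 0.24, with Vamp5 at -1.64, and the added calls were Rab36 (0.55), Snap91 (0.37), Vamp8 (-1.05, adjusted p = 0.00213), Stx4 (-0.49, adjusted p = 0.0152) and Snap29 (-0.38). Leaving out PVN array 1 or any 1 of the SON arrays brought the count to 5 or 6, and 4 of the 10 calls (Synpr, Vamp5, Stx3 and Syt16) were made in every setting that tested the gene.

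In the RVLM, SHR was set against WKY, the comparison of the hypertensive with the normotensive strain. None of the 62 members tested was called, against 1.41% of all genes tested (0.548% higher and 0.865% lower, 147 of 10400 genes). Differences ran from -0.48 to 0.36 with a median of -0.01, against -0.03 over all genes, and 28 were positive and 34 negative. At an unadjusted p under 0.05 there were 2 members, Vamp8 and Vamp5, and Stxbp5 had the next smallest p.

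Vamp8 was 87.9, 71.1, 100.2, 98.5 and 171 in SHR, against 143, 156, 139, 136 and 120.4 in WKY. The first 4 SHR arrays were below all WKY arrays and array 5 was above all of them (difference -0.48, SE 0.19, adjusted p = 0.361). Without SHR array 5 the difference was -0.69 (adjusted p = 0.011), the only call of a member in any setting of this comparison. Vamp5 was 78.9, 55.7, 114, 77.3 and 91.9 in SHR, against 112, 117, 107, 104 and 94.9 in WKY. Again 4 SHR arrays were below all WKY arrays (difference -0.42, SE 0.16, adjusted p = 0.367). Stxbp5 was 104, 137, 132, 105 and 121 in SHR, against 106, 86.7, 71.5, 111 and 112 in WKY. Its groups overlapped (difference 0.28, SE 0.15, adjusted p = 0.589).

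Cplx1, Vamp1 and Snap25, which were higher in the RVLM than in the other structures, differed little between the strains. Cplx1 averaged 3215 ± 263 in SHR and 3184 ± 303 in WKY (difference -0.01, SE 0.11, adjusted p = 0.982). Vamp1 averaged 3333 ± 304 in SHR and 3216 ± 293 in WKY (difference 0.02, SE 0.11, adjusted p = 0.971). Snap25 averaged 4788 ± 452 in SHR and 4743 ± 661 in WKY (difference -0.01, SE 0.12, adjusted p = 0.989). For these 3 genes the SE is small beside the structure differences of 1.08 to 3.19.

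Other core genes had differences of -0.38 for Syt1 (SE 0.21, adjusted p = 0.61), -0.17 for Syt2 (SE 0.19), -0.16 for Syn1 (SE 0.10), 0.05 for Sv2a (SE 0.10) and -0.21 for Vamp2 (SE 0.12). They were -0.10 for Stx1a (SE 0.28), 0.17 for Cplx2 (SE 0.30), -0.01 for Rab3a (SE 0.10), -0.11 for Rims1 (SE 0.15), -0.21 for Syp (SE 0.12) and -0.01 for Synpr (SE 0.13). Unc13a gave -0.59 (SE 0.71) with no filter. None of the pathway genes outside the rule was called, of 14 active zone, 13 vesicle membrane, 15 NSF and priming, 20 endocytosis and 7 exocyst genes. Of all genes tested, 1.41% were called. The pan-neuronal marker sum was 27311 to 31893 in SHR, against 24978 to 29160 in WKY. The blood cell sum was 362 to 857 in SHR, against 844 to 1028 in WKY, and the meningeal sum 2700.1 to 4161 in SHR, against 3318 to 5399 in WKY. The part of these markers in the Vamp8 and Vamp5 values was not tested.

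**Figure D4:**
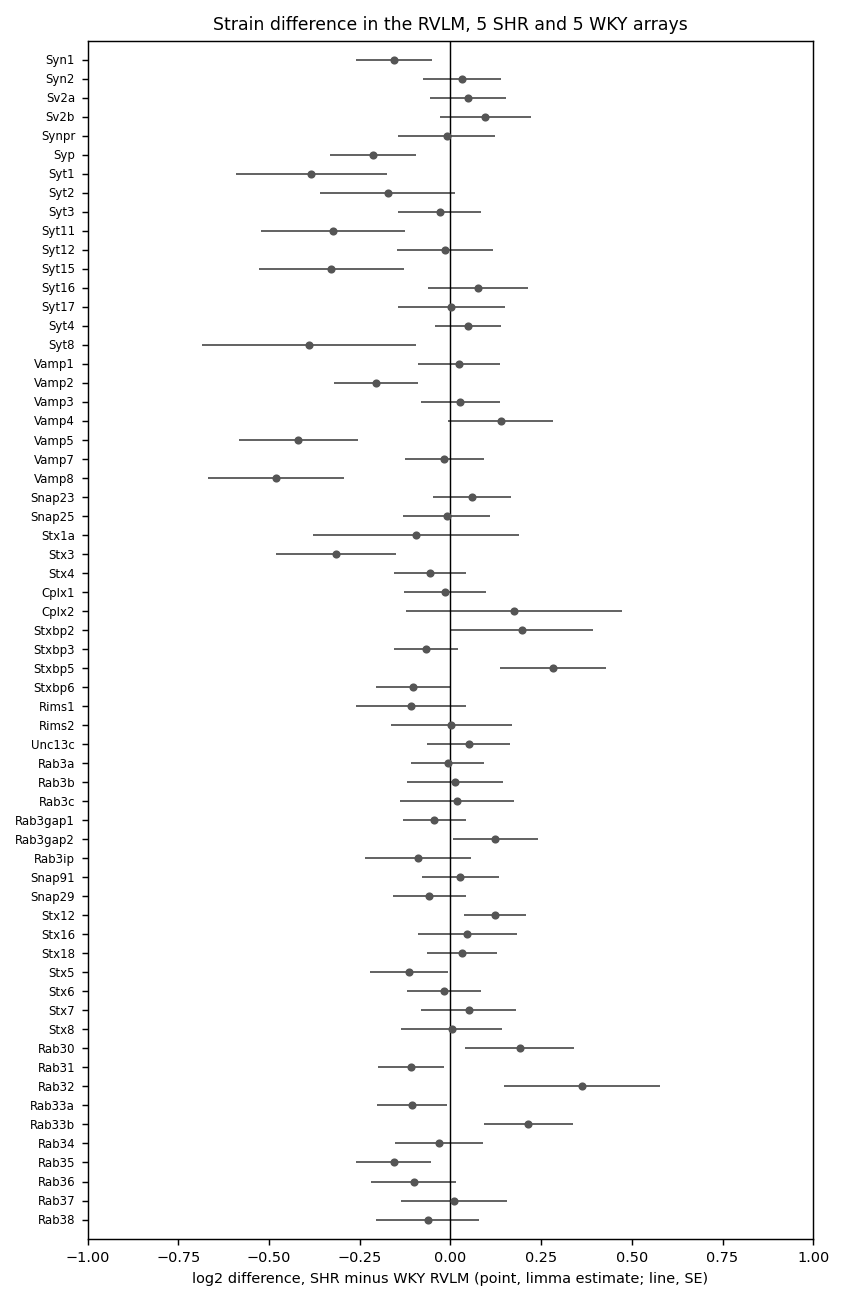
Log2 difference, SHR minus WKY RVLM, of the 62 members tested, with genes ordered by role. Points are estimates and bars are SE from 5 arrays per strain. The points run from -0.48 for Vamp8 to 0.36 and none was called after adjustment.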

How the data were processed

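RNA of dissected tissue, pooled from 5 rats per array, was labelled and hybridised to 24 Affymetrix rat 230 2.0 arrays, per the labels' protocols. The authors deposited linear intensity values per probe set, made with GCOS 1.2, per the submitters' processing notes; tested on the values, the 2% trimmed mean was 99.6 to 99.8 on the arrays, and detection calls were not used here. Of 31099 probe sets, 57 controls were left out. Gene names came from GEO's platform annotation, 20826 probe sets having 1 symbol, and all 80 members matched RefSeq. The number of arrays limits the precision.

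Log2 was taken of the intensity without a pseudocount, and array medians were brought to a common value. Probe sets above the 40th percentile of mean log2 intensity were kept in each fit (18625). limma 3.58.1 in R 4.3.3 (lmFit and eBayes with trend) was fitted to the 10 RVLM arrays for the strains and to the 19 SHR arrays for the structures. P-values were adjusted by Benjamini-Hochberg over all probe sets kept, and a gene was called at an adjusted p under 0.05. Folds are geometric. SD is over arrays of a group, SE is from the fit, and p-values measure the spread between arrays. The method was tested on simulated data.

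Members and gene lists were chosen with earlier results of these data known. Named in each comparison were a fixed set of core genes (Syt1, Syt2, Syn1, Sv2a, Vamp1, Vamp2, Stx1a, Snap25, Cplx1, Cplx2, Rab3a, Rims1, Unc13a, Syp and Synpr), the 10 largest rises and falls among called members whose groups did not overlap, the 3 smallest p in the strain comparison, and up to 3 called genes of each pathway list. For the largest rises and falls the lack of overlap was part of the choice, so it describes the values and adds no support. Any other member was named after its values were seen, as Vamp8 and Snap23 were in the RVLM comparison, whether or not it is so marked. Alternatives were other scalings, a pseudocount of 16, other filters, no trend, array weights, the replicate number as a block, the mean of a gene's probe sets, all 24 arrays in the fit and each array left out.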

Additional observations from a re-analysis of the deposited data

Results flagged for a closer look

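A single array stood far from the others of its group, by Dixon's 95% critical value, in 13 of 205 sets of a named member and a group, where chance alone gives about 10.25.

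PVN array 3 was the high array in 4 of them. It read 137 for Cplx2, against 19.96 to 21.9 on the other PVN arrays, and 319 for Stx4, against 151 to 181. It also read 301 for Stxbp6, against 206 to 233, and 138 for Vamp5, against 57.8 to 69.0. PVN array 1 was high for Synpr, at 498, against 235 to 299, and for Syt17, at 209, against 155 to 165.

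In the NIL, array 4 was high for Syt1, at 41.6, against 33.5 to 34.6, and for Syt16, at 20.4, against 14.6 to 15.7. NIL array 5 was high for Stx5, at 335, against 214 to 242, and NIL array 1 was high for Sv2a, at 134, against 88.7 to 101. In the RVLM, SHR array 1 was low for Rab38, at 40.5, against 50.4 to 54.3, and for Stxbp3, at 346, against 393 to 405. WKY RVLM array 4 was low for Sv2b, at 821, against 1229 to 1368.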

How the results depend on the processing

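The counts of called members in the NIL and RVLM comparisons stayed within 1.5 times of 41 and 37 in every alternative run: 30 to 44 and 28 to 43 over 10 other settings, and 36 to 42 and 31 to 38 with one array left out. Of those calls, 36 of 41 in the NIL and 28 of 37 in the RVLM were made in every setting that tested the gene. One call turned: Syt4 in the RVLM was 0.21 (adjusted p = 0.0353) as the mean of its probe sets. Between PVN and SON the count of 10 became 16 with quantile normalization, 19 with array weights and 5 with the filter at the 60th percentile, which tested 43 members, and 5 to 15 with one array left out. In that comparison 4 of 10 calls were made in every setting that tested the gene, 2 of them (Synpr and Vamp5) in every setting run. The cause was not tested. Between the strains the count was 0 in the 10 other settings and 0 to 1 with one array left out. Deviations of same-numbered arrays had correlations of -0.119 to 0.166, not all over 0.1, so the numbers were not taken to pair arrays. With the replicate number as a block, the counts were 0 for the strains, 9 for PVN against SON, 40 for the NIL and 37 for the RVLM. Dim probe sets limit the fits: 15 members were under the filter in every fit, and no detection calls were used to set a background level.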
